A study of Mus musculus with 6 samples.

Results

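The 9 genes described here encode chemokine receptors that guide helper T cells: Ccr2, Ccr4, Ccr6, Ccr7, Ccr8, Cxcr3, Cxcr4, Cxcr5 and Cxcr6. They were listed by name, and were taken from the 41388 genes of an RNA-Seq table by their Ensembl identifiers. All 9 were found, and 8 of them had a mean normalized count of at least 10 and were tested, Ccr2 being the exception. The libraries came from 3 WT and 3 Irf1-/- cultures of C57BL/6 T cells, kept for 2 days under Th9-polarising conditions, that is with IL-2, IL-4 and TGF-β, and with IFN-γ in all 6 cultures. IL-9-producing Th9 cells form from activated T cells in this cytokine mixture, and IFN-γ induces the transcription factor IRF1, whose gene is inactivated in all cells of the Irf1-/- mice and not only in T cells. As all 6 cultures had IFN-γ, the comparison is between genotypes and shows no response to IFN-γ itself. The labels give T cells purified by negative magnetic selection from spleen and lymph nodes, whereas the study's methods describe naive CD4+ T cells, activated with antibodies to CD3 and CD28. The study calls the replicates independent biological samples, but the labels do not say which came from separate mice, so that the p values measure the spread between these 6 samples, which may be technical.

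Chemokine receptors are G protein-coupled receptors of the cell surface that sense gradients of small secreted chemokines and turn them, through inhibitory G proteins and the actin cytoskeleton, into directed movement and integrin activation. Arrestins, G protein-coupled receptor kinases and RGS proteins then switch the signal off and take the receptor from the surface. In helper T cells the set of receptors changes with activation and lineage, naive cells bearing CCR7, Th1 cells CXCR3, Th2 and regulatory T cells CCR4 and CCR8, Th17 and some Th9 cells CCR6, and follicular helper cells CXCR5.

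The libraries held between 5639788 and 13348230 reads on genes, and replicate 3 of each genotype was the largest. The normalized count, in which the authors divided the reads on a gene by a size factor of its library, put 3 reads at 1.84 to 4.16. Irf1 itself had 2968, 2907 and 2659.8 normalized counts in WT cells and 1780.2, 1729 and 1476 in Irf1-/- cells, 58.4% of the WT mean, so that transcripts of the targeted gene were lower in each library labelled Irf1-/- but were not lost. The T cell markers Cd3e, Cd3g, Cd3d, Cd4, Cd28, Trac, Trbc1 and Trbc2 were present in all libraries, with a sum of 10952 to 11131 in WT and 9839 to 10366 in Irf1-/- cells, while Cd8a stayed at or below 4.99 and Cd8b1 had 27.5 to 38.1 in WT and 17.9 to 27.5 in Irf1-/- libraries. Of the Th9 markers, Il9, Irf4, Batf and Gata3 were present and Spi1 had at most 2 reads in a library. WT replicates 1 and 2 held Y-linked transcripts, such as Ddx3y with 849 and 939 normalized counts, and the other 4 libraries held Xist with 16974 to 19404, so the WT cultures differed among themselves in this respect and WT replicate 3 alone matched the Irf1-/- cultures. A fit on the 4 libraries with Xist was therefore also made. Its values were read for the tested receptors, their tested ligands and the called list genes with the largest changes. At most 4 such list genes were taken in a direction per list, and other named genes were not read from it. The sum of 8 myeloid markers was 54.9 to 182 in the WT libraries and 238, 1042 and 42.8 in Irf1-/- replicates 1, 2 and 3, so that replicates 1 and 2 lay above every WT library and replicate 2 furthest, with Lyz2 at 559. Ccr6, Ccr7, Ccr8 and Cxcr6 were also highest of their group there. The genes read from the Xist fit were also read from fits with each library left out. Of the T cell markers, Cd3e, Trac and Trbc1 fell in Irf1-/- cells, with log2 differences of -0.30, -0.32 and -0.31 (limma adjusted p = 0.00535, 0.00632 and 0.0151), and their part in the receptor values was not tested.

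Per length of exon, the cells expressed Ccr8, Ccr7 and Ccr4 far above the other receptors. In WT cells the mean normalized count per kb of exon was 2085 ± 200.3 (SD, n = 3) for Ccr8, 1649 ± 118 for Ccr7 and 579 ± 19.1 for Ccr4. These 3 genes made up 95.7% to 97.1% of the summed level of the 9 receptors in WT libraries and 96.5% to 96.9% in Irf1-/- libraries. The next in order in WT cells were Ccr6 with 82.1 ± 20.0 and Cxcr3 with 52.8 ± 12.0 normalized counts per kb, whose ranges overlapped, since Ccr6 was as low as 59.1 and Cxcr3 as high as 64.9. They were followed by Cxcr4 with 13.3, Cxcr5 with 8.96 and Cxcr6 with 5.73, and each of these overlapped its neighbour. Ccr2 was at 0 in all WT libraries. In Irf1-/- cells Ccr6, with 31.6 ± 3.30 normalized counts per kb, lay below Cxcr3, with 53.5 ± 1.26, and no neighbours in the order overlapped. The order of the 2 genes was thus exchanged between the genotypes, while that of the other 7 was not. The summed level of the 9 genes was 4339, 4460.0 and 4629 normalized counts per kb in WT cells and 3616, 3653 and 3822 in Irf1-/- cells, so each Irf1-/- culture lay below each WT culture. Of that sum, Ccr4 took 12.4% to 13.8% in WT and 15.0% to 18.2% in Irf1-/- libraries, Ccr7 34.1% to 40.5% and 31.9% to 34.5%, and Ccr8 42.7% to 48.9% and 46.8% to 48.0%.

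**Figure D1:**
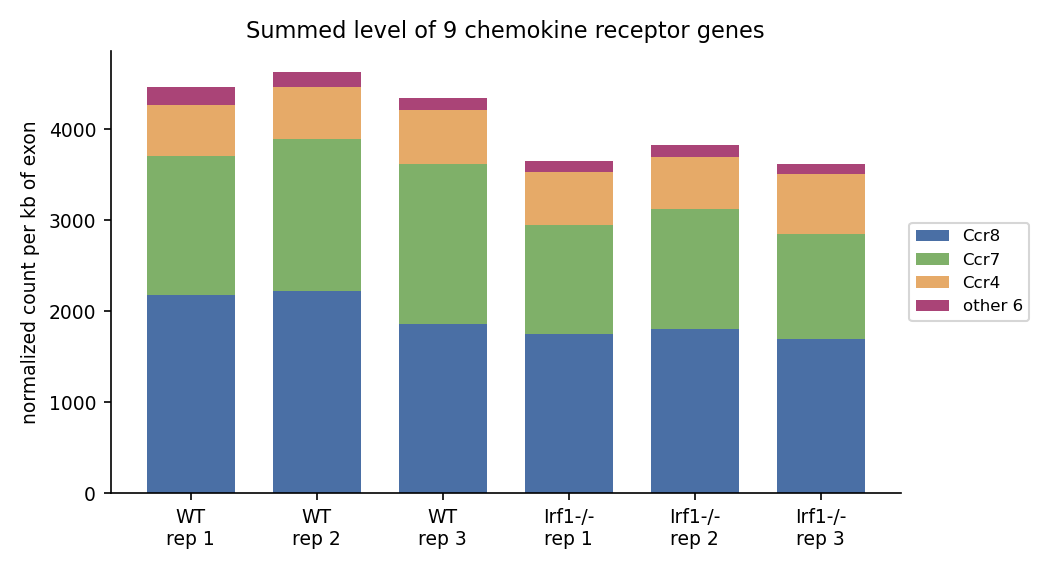
Stacked bars give the normalized count per kb of exon for Ccr8, Ccr7, Ccr4 and the other 6 receptors together in each of the 3 WT and 3 Irf1-/- libraries. The full bars reach 4339 to 4629 in WT and 3616 to 3822 in Irf1-/- libraries, and Ccr8, Ccr7 and Ccr4 make up nearly all of every bar.

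Of the 8 tested receptors, 3 fell and 1 rose in Irf1-/- cells, and the other 4 did not pass the test. Ccr6, Ccr7 and Ccr8 were lower and Cxcr4 was higher by limma's test of log2(normalized count + 1), at an adjusted p of less than 0.05. These were 4 of the 8 tested members, where 23.7% of all 11379 tested genes were called, 12.4% as lower and 11.4% as higher. WT and Irf1-/- values were apart for these 4 receptors and overlapped for the other 4, and they did not overlap for 40.5% of all tested genes, 20.9% lying lower and 19.7% higher in Irf1-/- cells. The log2 difference, Irf1-/- minus WT, is the log2 fold change on that scale, and its median was -0.05 over the 8 receptors and -0.00373 over all tested genes. For each of the 4 called receptors the exact two-sided permutation p was 0.1, the smallest that 3 samples against 3 can give. In bulk RNA, fewer cells that express a receptor and less transcript per cell cannot be told apart.

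**Figure D2:**
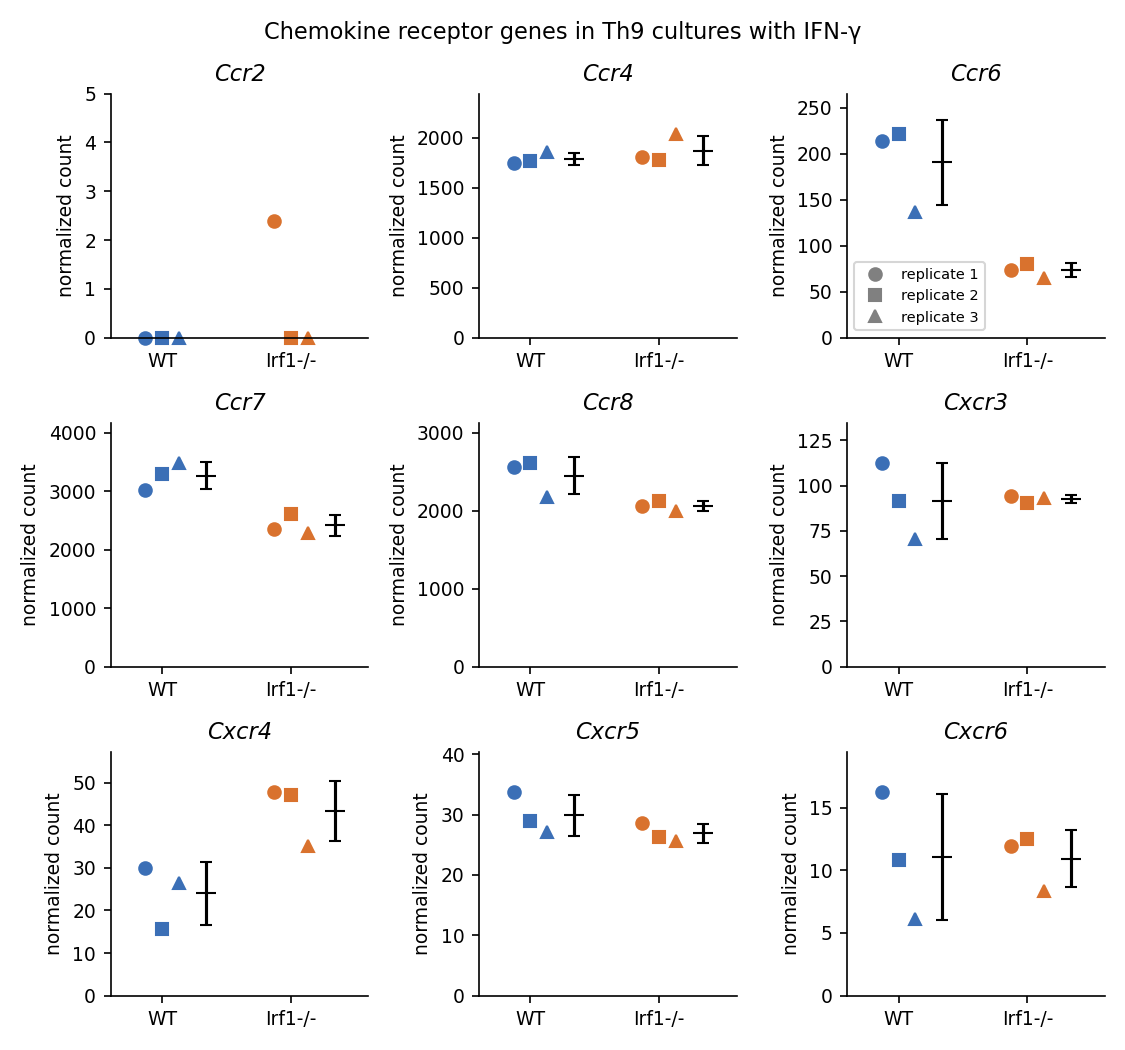
Each panel shows the normalized count of 1 receptor gene in the 3 WT and 3 Irf1-/- cultures on an axis that starts at 0, with a symbol per replicate and, for the tested genes, the mean and SD of the group in black. The genotypes are apart for Ccr6, Ccr7, Ccr8 and Cxcr4, and overlap for Ccr4, Cxcr3, Cxcr5 and Cxcr6.

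Promoter sequences are shown for the receptors that moved, as far as a window was listed, and for Cxcr6, because the study spells the interferon-stimulated response element as AANNGAAA and IRF1 binds such elements. Each window runs from 250 bases before to 50 bases after a start site of RefSeq on GRCm38.p6, 5′ to 3′ on the strand of the gene, and capitals mark AANNGAAA, searched on both strands as the only motif. Windows were matched by symbol for 7 of the 9 receptors, all but Ccr7 and Cxcr5. The motif was in the windows of 2 of them, Ccr6 and Cxcr6, and in 26.7% of the 27025 genes with a window, or 23.9% of the 32851 windows. Ccr6 had 2 start sites with a match each, whose first base lay 79 and 224 bases upstream, and Cxcr6 had a match 213 bases upstream. The windows of Ccr2, Ccr4, Ccr8, Cxcr3 and Cxcr4 held no match.
Ccr6, chr17:8235793-8236092, + strand: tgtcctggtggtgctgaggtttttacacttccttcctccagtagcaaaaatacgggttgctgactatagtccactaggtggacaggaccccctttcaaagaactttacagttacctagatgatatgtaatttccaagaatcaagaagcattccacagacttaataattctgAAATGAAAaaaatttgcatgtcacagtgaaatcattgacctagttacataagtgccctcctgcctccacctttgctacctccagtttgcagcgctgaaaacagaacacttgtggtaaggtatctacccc
Ccr6, chr17:8242276-8242575, + strand: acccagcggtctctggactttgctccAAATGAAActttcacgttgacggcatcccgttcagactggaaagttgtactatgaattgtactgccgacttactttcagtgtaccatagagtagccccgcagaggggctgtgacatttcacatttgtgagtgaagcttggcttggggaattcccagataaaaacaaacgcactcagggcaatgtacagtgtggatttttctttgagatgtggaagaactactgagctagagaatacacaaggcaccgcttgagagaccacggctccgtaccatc
Cxcr6, chr9:123806227-123806526, + strand: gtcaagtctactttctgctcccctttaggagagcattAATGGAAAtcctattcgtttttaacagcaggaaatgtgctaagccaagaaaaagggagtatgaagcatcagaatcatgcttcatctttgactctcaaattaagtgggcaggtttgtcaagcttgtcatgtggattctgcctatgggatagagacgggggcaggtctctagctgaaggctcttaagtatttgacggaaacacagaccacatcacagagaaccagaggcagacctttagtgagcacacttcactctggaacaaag
Ccr8, chr9:120091883-120092182, + strand: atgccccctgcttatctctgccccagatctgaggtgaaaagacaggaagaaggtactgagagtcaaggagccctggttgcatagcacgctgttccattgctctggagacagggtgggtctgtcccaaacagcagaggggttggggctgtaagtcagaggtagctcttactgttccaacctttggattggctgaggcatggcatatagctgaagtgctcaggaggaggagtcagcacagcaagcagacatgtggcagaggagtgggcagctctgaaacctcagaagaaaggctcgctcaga
Cxcr4, chr1:128592250-128592549, - strand: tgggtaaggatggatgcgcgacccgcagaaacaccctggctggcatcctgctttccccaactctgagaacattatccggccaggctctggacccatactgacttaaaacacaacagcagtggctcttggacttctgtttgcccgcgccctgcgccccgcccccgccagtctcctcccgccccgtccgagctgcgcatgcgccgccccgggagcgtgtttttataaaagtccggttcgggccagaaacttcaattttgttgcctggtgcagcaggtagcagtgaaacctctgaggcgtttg
A match was thus present both in a receptor gene that fell and in Cxcr6, for which no difference was called, and it was absent from the windows of Ccr8 and Cxcr4. These letters alone do not show a bound site.

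Ccr6, the receptor for CCL20 and a marker of Th17 cells, showed the largest change. The gene (ENSMUSG00000040899) occupies bases 8236043 to 8257141 of chromosome 17 in GRCm38, + strand, the build of all positions given here. Its normalized counts were 213, 221 and 137 in WT cultures and 74.0, 80.4 and 65.2 in Irf1-/- cultures. WT replicate 3 was the lowest of its group and still lay above each Irf1-/- value. The mean fell from 191 ± 46.5 to 73.2 ± 7.66 (SD, n = 3 each), a log2 difference of -1.34 (SE 0.181, 95% interval -1.74 to -0.94, limma adjusted p = 0.000588), and by size of change it ranked 272 of the 11379 tested genes. The call held in all 19 alternatives. In the 4 libraries with Xist the log2 difference was smaller, at -0.90 (limma adjusted p = 0.0355), with the lone WT library assumed to vary like the Irf1-/- ones, and without WT replicate 3 it was -1.56. Of the markers of B cells, which also express Ccr6, Ms4a1 was at or below 4.16 in each library and Pax5 at 0, while Cd79a reached 11.1 and Cd79b had 11.2 to 16.0 normalized counts in WT and 17.3 to 26.3 in Irf1-/- libraries, so that the values of Cd79b were higher where Ccr6 was lower (limma adjusted p = 0.262).

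Ccr7, through which naive and central memory T cells follow CCL19 and CCL21 into lymph nodes, fell in Irf1-/- cells. The gene (ENSMUSG00000037944) lies on the - strand of chromosome 11 from 99144196 to 99155077, on the chromosome of Irf1 but far from it, Irf1 being at 53770014 to 53778374. WT cultures had 3013, 3296 and 3477 normalized counts and Irf1-/- cultures 2353, 2607 and 2278, with no overlap. The log2 difference was -0.43 (SE 0.0689, 95% interval -0.59 to -0.28, limma adjusted p = 0.00154), and the Irf1-/- mean was 74.0% of the WT mean. Every alternative kept the call. In contrast to Ccr6, the difference did not shrink in the libraries with Xist, where the log2 difference was -0.53 (limma adjusted p = 0.00931).

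Ccr8, the receptor for CCL1 on Th2 and regulatory T cells, was the most abundant member per length and fell slightly in Irf1-/- cells, by a difference that many of the alternatives did not call. It is at 120092114 to 120094906 on the + strand of chromosome 9 (ENSMUSG00000042262). Its normalized counts were 2562, 2608 and 2179 in WT and 2058, 2119 and 1989 in Irf1-/- cultures. WT replicate 3 stood nearer to the highest Irf1-/- value than to the other WT cultures. The log2 difference was -0.25 (SE 0.0706, limma adjusted p = 0.0279), and 9 of 19 alternatives lost the call. Among these were the fits without WT replicate 1 (-0.21, adjusted p = 0.115), without WT replicate 2 (-0.20, adjusted p = 0.122) and without Irf1-/- replicate 1, 2 or 3 (adjusted p = 0.0791, 0.0574 and 0.0509), all from limma. In the libraries with Xist the log2 difference was -0.08 (limma adjusted p = 0.596), and adding the Y-linked level to the fit gave -0.10 (limma adjusted p = 0.308).

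Cxcr4, the receptor for CXCL12 that retains cells in bone marrow and other tissues, was the only member called higher in Irf1-/- cells, at a low level. It lies on chromosome 1 from 128588199 to 128592293 on the - strand (ENSMUSG00000045382). WT cultures had 30.0, 15.6 and 26.4 normalized counts, from 24, 13 and 43 reads, and Irf1-/- cultures 47.8, 47.2 and 35.1, from 40, 34 and 55 reads. The lowest Irf1-/- value was only slightly above the highest WT value. The log2 difference was 0.86 (SE 0.268, 95% interval 0.27 to 1.46, limma adjusted p = 0.0401). The sign held in all 18 alternatives in which Cxcr4 was tested, and 9 of them lost the call, among them DESeq2 on recovered reads (adjusted p = 0.112), the 4 libraries with Xist (0.68, limma adjusted p = 0.224), and the fits without WT replicate 2 (0.59, limma adjusted p = 0.127), Irf1-/- replicate 1 (limma adjusted p = 0.127) or Irf1-/- replicate 2 (limma adjusted p = 0.128).

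**Figure D3:**
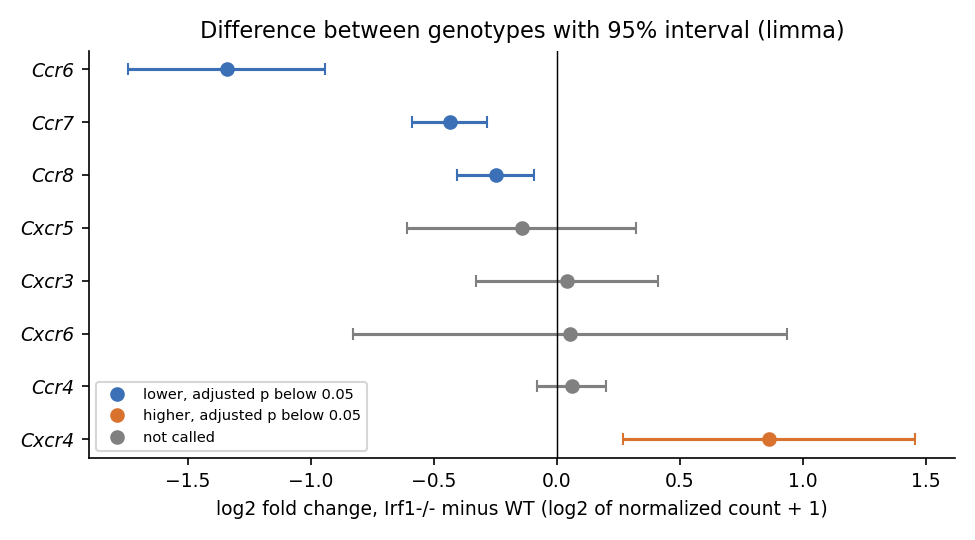
Points give the log2 fold change (Irf1-/- minus WT) of the 8 tested receptor genes and bars the 95% interval from limma. The intervals of Ccr6, Ccr7 and Ccr8 lie below 0 and that of Cxcr4 above it, while those of Ccr4, Cxcr3, Cxcr5 and Cxcr6 include 0, from a narrow one for Ccr4 (-0.08 to 0.20) to a wide one for Cxcr6 (-0.83 to 0.94).

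Ccr4, which binds CCL17 and CCL22 on Th2, regulatory and skin-homing T cells, was the abundant receptor with the narrowest interval around no change. On chromosome 9 from 114490316 to 114504916 (ENSMUSG00000047898, - strand), it had 1746, 1768 and 1858 normalized counts in WT and 1805, 1772 and 2035 in Irf1-/- cultures. The values of the genotypes interleaved, with Irf1-/- replicate 3 the highest. The log2 difference was 0.06 with a 95% interval of -0.08 to 0.20 (limma adjusted p = 0.529).

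Cxcr3, the receptor for CXCL9, CXCL10 and CXCL11 and a marker of Th1 cells, had 112, 91.4 and 70.7 normalized counts in WT and 94.3, 90.1 and 93.3 in Irf1-/- cultures. Its gene (ENSMUSG00000050232) is on the X chromosome, from 101731535 to 101734269 on the - strand. All Irf1-/- values lay inside the WT range, whose lowest value was the WT library with Xist. The log2 difference was 0.04 with a 95% interval of -0.33 to 0.41 (limma adjusted p = 0.887), and in the 4 libraries with Xist it was 0.38 (limma adjusted p = 0.288). Its sign turned without WT replicate 3, to -0.13. Tbx21, which encodes the Th1 factor T-bet, is known to drive Cxcr3.

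Cxcr5 was low, with a mean normalized count of 28.4 over all libraries, and Cxcr6, with 11.0, was close to the lower limit of the test. Cxcr5 (ENSMUSG00000047880, chromosome 9 from 44511787 to 44561877 on the - strand), the receptor for CXCL13 on follicular helper T cells and B cells, had 33.7, 28.9 and 27.0 normalized counts in WT and 28.7, 26.3 and 25.6 in Irf1-/- cultures. The ranges overlapped, and the log2 difference was -0.14 with a 95% interval of -0.61 to 0.32 (limma adjusted p = 0.665). It was -0.06 without WT replicate 1 and -0.01 in the libraries with Xist. Bcl9l, annotated on the other strand, shares 110 exon bases with it, 3.30% of the exon length of Cxcr5, and reads there could not be told apart if the counting ignored strand. Cxcr6 (ENSMUSG00000048521, chromosome 9 from 123806475 to 123811760 on the + strand), the receptor for CXCL16 on effector and tissue-resident T cells, had 16.2, 10.8 and 6.15 normalized counts in WT and 11.9, 12.5 and 8.31 in Irf1-/- cultures, from 9 to 13 reads in each library. Its 95% interval of -0.83 to 0.94 on the log2 scale leaves room for a difference in either direction at this depth, and its sign turned in 5 of 18 alternatives.

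Ccr2, the CCL2 receptor of monocytes and some effector T cells, was not detected beyond 2 reads. Those 2 reads were in Irf1-/- replicate 1 and corresponded to 2.39 normalized counts, and the other 5 libraries had 0, which allows a level of up to 1.84 to 4.16 normalized counts at 3 reads. The floor covers counting error only. Irf1-/- replicate 2, with the highest myeloid markers, had 0 reads on Ccr2. The gene (ENSMUSG00000049103, chromosome 9 from 124101950 to 124113557 on the + strand) shares 1.91% of the stretches of 50 bases in its transcripts with transcripts of other genes. For Ccr6, Ccr7, Ccr8, Cxcr3, Cxcr4 and Cxcr6 no such stretch was shared with another gene, and for Ccr4 and Cxcr5 the share was 0.465% and 1.86%.

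The ligands of the 9 receptors were nearly silent in these cultures. Of 16 ligand genes, 14 were below the limit of the test and 7 of these were at 0 in all libraries, among them Ccl2, Ccl19, Ccl21a and Cxcl12. The tested ones were Ccl1 and Ccl20, which encode the ligands of CCR8 and CCR6. Ccl1 had 41.2, 69.7 and 24.0 normalized counts in WT and 20.3, 20.8 and 16.0 in Irf1-/- cultures, a log2 difference of -1.08 (limma adjusted p = 0.0424) that lost its call in 8 of 18 alternatives, for instance at -0.71 (limma adjusted p = 0.166) without WT replicate 2 and at -0.33 (limma adjusted p = 0.670) in the libraries with Xist. Ccl20 had 44.9, 54.1 and 19.1 in WT and 21.5, 29.1 and 26.2 in Irf1-/- cultures. The WT values of Ccl20 lay on both sides of the Irf1-/- values, and its log2 difference of -0.49 (limma adjusted p = 0.345) turned to 0.40 in the libraries with Xist, while without WT replicate 3 it was -0.93 and called (limma adjusted p = 0.0164). Ccl22 and Ccl17, which encode the ligands of CCR4, had at most 18.0 and 5.97 normalized counts, and Cxcl16, for CXCR6, at most 18.0, in Irf1-/- replicate 2 and thus beside the high myeloid markers. The 10 other chemokine receptors listed, from Ccr1 to Cx3cr1, were all below the limit, and so were the 5 atypical ones.

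Downstream of the receptors, most of the signalling genes did not pass the test, and the desensitization genes held the largest change of these 2 lists. Of 22 genes for G protein subunits and the paths to the cytoskeleton and integrins, all 22 were tested, 4 rose and 1 fell, with a median log2 difference of 0.01, where 11.4% of all tested genes were called higher and 12.4% lower, so that the share called was near that of all genes. The 4 were Gng2 (0.70), a G protein gamma subunit, Plcb2 (0.38), a phospholipase C, Rac2 (0.37), a GTPase of actin remodelling in blood cells, and Coro1a (0.27), an actin-binding coronin. In the libraries with Xist the log2 differences of Plcb2, Rac2 and Coro1a were 0.46, 0.25 and 0.22 and not called (limma adjusted p = 0.0814, 0.167 and 0.138), and the call of Plcb2 was also lost by DESeq2 (adjusted p = 0.0529) and without WT replicate 1 (limma adjusted p = 0.0574). Rapgef1, a Rap1 exchange factor, fell by 0.19 (limma adjusted p = 0.0375), a call that 9 of 19 alternatives lost. Gnai2, the main inhibitory alpha subunit of lymphocytes, had a log2 difference of 0.06 (limma adjusted p = 0.420). Of 14 desensitization genes, 12 were tested, 2 rose and 3 fell, beside the same 11.4% and 12.4% over all tested genes. Arrb1, which encodes beta-arrestin 1, rose from 199.7, 248 and 301 normalized counts in WT to 581, 699 and 702 in Irf1-/- cultures, with no overlap. Its log2 difference was 1.42 (SE 0.136, limma adjusted p = 6.52e-05), with the call kept in all 19 alternatives and a value of 1.13 in the libraries with Xist. Arrb2 rose by 0.34 on the log2 scale (limma adjusted p = 0.00393), and in the libraries with Xist it was 0.30 without a call (limma adjusted p = 0.106). Grk5, Rgs2 and Rgs3 fell by 0.97, 0.59 and 0.36, and in the libraries with Xist the values were -0.58, -0.28 and -0.26 and none of the 3 was called, nor was Grk5 or Rgs2 without WT replicate 1, WT replicate 2 or Irf1-/- replicate 2. Grk2, the receptor kinase with the highest count, did not pass the test, with 3742 to 3864 normalized counts in WT and 3631 to 3842 in Irf1-/- cultures.

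**Figure D4:**
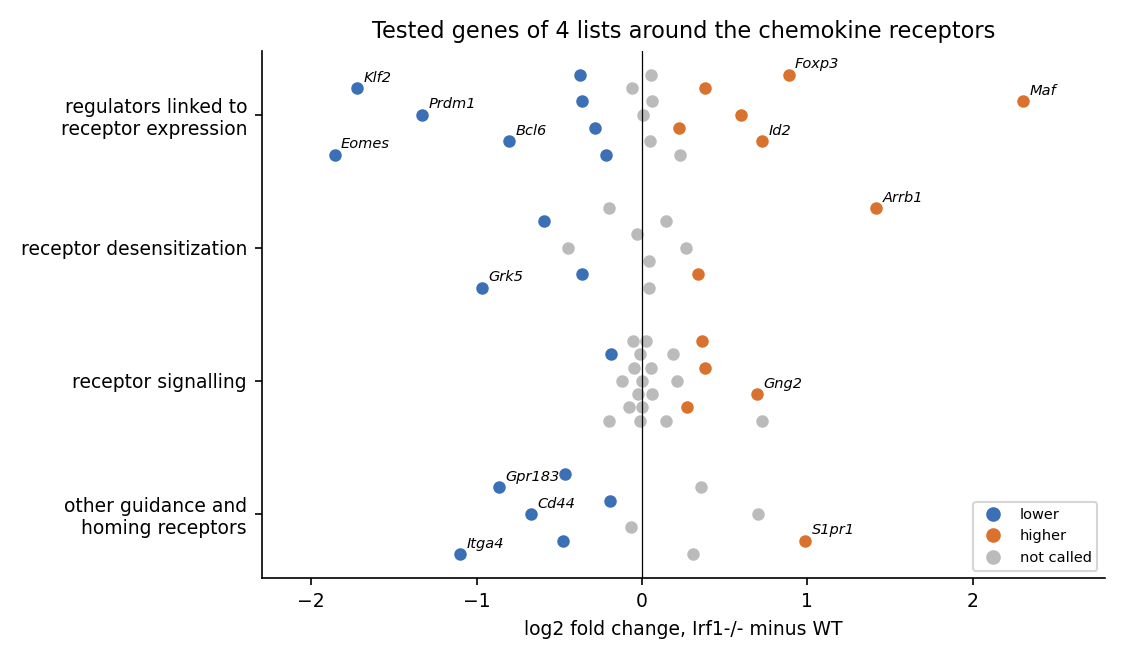
Points give the log2 fold change (Irf1-/- minus WT) of tested genes of 4 lists, all but 2 of those tested, coloured by the call at an adjusted p below 0.05 in limma, with the vertical position inside a list set only to separate the points. Homing receptors lie mostly to the left, with Itga4 at -1.10 and S1pr1 to the right at 0.99, and Arrb1 and Maf stand at 1.42 and 2.31.

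Among other receptors of T cell guidance and homing, Itga4, Gpr183 and Cd44 fell and S1pr1 rose. Of 14 listed genes, 12 were tested, 7 fell and 1 rose, where 12.4% of all tested genes were called lower and 11.4% higher. The median log2 difference was -0.33, beside -0.00373 for all tested genes. Cd44, the hyaluronan receptor of activated T cells, fell by 0.67 on the log2 scale (limma adjusted p = 9.40e-06), Gpr183, the oxysterol receptor of follicular positioning, by 0.86 (limma adjusted p = 0.00537), and the integrin gene Itga4 by 1.10 (limma adjusted p = 0.0154). The call of Itga4 was lost by DESeq2 (adjusted p = 0.0688), with no trend (limma adjusted p = 0.0862) and without Irf1-/- replicate 2, the library with the highest myeloid markers (-0.77, limma adjusted p = 0.05004). Cd69, Itgb7 and Itgal fell too. S1pr1, which encodes the sphingosine 1-phosphate receptor needed to leave lymph nodes, was the gene that rose, from 86.1, 119 and 86.7 to 172, 176 and 233 normalized counts, with a log2 difference of 0.99 (limma adjusted p = 0.00183) and no overlap. Calls of Cd44, Gpr183 and S1pr1 held in the libraries with Xist.

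Of 21 transcription factors linked to receptor expression, all were tested, 8 fell and 6 rose, where 12.4% of all tested genes were called lower and 11.4% higher. Their median log2 difference was 0.01. Tbx21 fell by 0.36 on the log2 scale (limma adjusted p = 0.0108), from 1437 ± 159.9 to 1115 ± 66.0 normalized counts (SD, n = 3 each), beside a Cxcr3 for which no difference was called. Eomes, its close relative, fell by 1.86 (limma adjusted p = 0.00869), and in the libraries with Xist it was -2.25 without a call (limma adjusted p = 0.0598). Klf2, a factor of quiescent T cells that drives S1pr1, had 66.1, 70.9 and 24.6 normalized counts in WT and 20.3, 20.8 and 6.39 in Irf1-/- cultures. WT replicate 3 lay only slightly above the higher Irf1-/- values, and the log2 difference was -1.72 (limma adjusted p = 0.0255), which was not called without WT replicate 1 or 2 or in the libraries with Xist (-0.76, limma adjusted p = 0.509). Klf2 and S1pr1 thus had differences of opposite sign. Prdm1, which encodes Blimp-1, fell by 1.33 (limma adjusted p = 0.0351), on 5 to 30 reads per library, and lost the call in 10 of 18 alternatives. Bcl6, the follicular helper factor, fell by 0.80 (limma adjusted p = 0.0128), and the call was lost without WT replicate 1 or 2 and in the libraries with Xist (-0.35, limma adjusted p = 0.378). The genes that rose included Maf (2.31), Foxp3 (0.89), Id2 (0.73) and Rora (0.60), of which Maf, Foxp3 and Id2 kept the call in the libraries with Xist and Rora, at 0.54, did not (limma adjusted p = 0.0754). Gata3, the Th2 factor, had a log2 difference of 0.06 (limma adjusted p = 0.769), as did Ccr4.

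**Figure D5:**
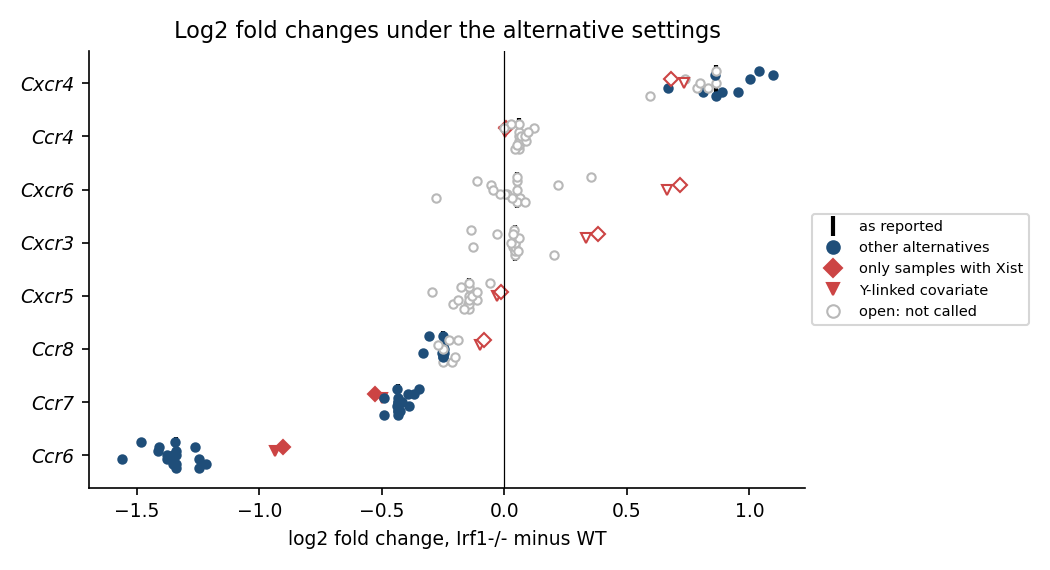
Symbols give the log2 fold change (Irf1-/- minus WT) of each tested receptor gene under up to 19 alternative settings, the black bar the value as reported, filled symbols a call at an adjusted p below 0.05 and open symbols none. Ccr6 and Ccr7 are filled throughout and lie between -1.56 and -0.90 and between -0.53 and -0.35, Ccr8 and Cxcr4 are partly open, and the red symbols, for the libraries with Xist and the Y-linked covariate, lie nearer 0 for Ccr6 and Ccr8 but not for Ccr7.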

How the data were processed

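Poly(A) RNA of 6 cultures was sequenced as single-end reads on an Illumina HiSeq2500. Alignment by the authors used STAR 2.4.0b and GRCm38, featureCounts assigned reads to Ensembl genes, and the counts were divided by DESeq2 1.12.3 size factors, so that the deposited signal is a normalized count. Strand use and the treatment of reads with several matches are not given in the sources used here. All non-zero values (100.0%) were whole multiples of a step per library, within a tolerance of 0.01 reads, and whole reads were recovered from them.

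Gene symbols came from the GENCODE table by Ensembl identifier for 40254 of 41388 genes, and exon lengths and coordinates from GENCODE M21 on the same build. Genotypes were compared in R 4.3.3 with limma 3.58.1 (eBayes with trend) on log2(normalized count + 1), after leaving out genes whose mean was under 10, and p values were adjusted over the remaining 11379 by the Benjamini-Hochberg method. On this scale fold changes of low genes are understated. The study's methods name DESeq2, which needs counts, so edgeR 4.0.16 and DESeq2 1.42.0 on recovered reads were alternatives. Scripts were tested on simulated data.

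The members, lists, tests and alternatives were chosen with earlier results of these data known. All 9 members are named, and of each list the called genes with the largest changes, at most 4 in a direction, with ligands and paralogs of members and others added after their values were seen. Lists and members are described by counts, without a set test. Some listed genes enter these counts and are not reported here by name.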

Additional observations from a re-analysis of the deposited data

How the results depend on the processing

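Ccr6 and Ccr7 were called lower under all 19 alternatives, which were quantile normalization, TMM factors, a pseudocount of 10 or 0.1, a minimum mean of 50 or none, no trend, a replicate block, edgeR, DESeq2, the Y-linked level as a covariate, only the samples with Xist, replicate 3 of both groups left out, and each of the 6 libraries left out in turn. The count of lower receptors was 3 or 2, as Ccr8 lost its call under 9. No receptor was called higher, a count of 0, with no filter, a mean of at least 50 (Cxcr4 was then not tested), quantile normalization, no trend, DESeq2, the Y-linked covariate or only samples with Xist, and the count was 0 to 1 with each library left out. Cxcr4 had an unadjusted p below 0.05 under 16 of 18 alternatives. Signs turned, without a call, for Cxcr3 at -0.032 with quantile normalization and -0.13 without both replicates 3 or without WT replicate 3. They turned for Cxcr6 at -0.054 with quantile normalization, -0.11 without both replicates 3, -0.28 without WT replicate 3, -0.02 without Irf1-/- replicate 1 and -0.05 without Irf1-/- replicate 2. For Ccr4 the value was -0.0010 without Irf1-/- replicate 3, and with each library left out Ccr4 ranged from there to 0.099, Cxcr3 from -0.13 to 0.20, Cxcr5 from -0.21 to -0.06 and Cxcr6 from -0.28 to 0.35, and for Ccl20 0.30 with the Y-linked covariate and 0.40 in samples with Xist, whereas Ccl20 was called lower at -0.93 without WT replicate 3 and at -0.95 without both replicates 3 (limma adjusted p = 0.0164 and 0.00613).

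Over all genes, 1406 were lower and 1293 higher, against 1417 and 1261 by edgeR and 1060 and 942 by DESeq2 on recovered reads. Lower genes numbered 807 with no trend, 2116 with the replicate block, 392 in samples with Xist, and 826 to 1472 with each library left out, the least without WT replicate 2. Higher genes numbered 856 with the Y-linked covariate, 392 in samples with Xist, and 799 to 1372 with each library left out, again the least without WT replicate 2. In the 4 lists of homing, signalling, desensitization and regulator genes together, 19 genes were lower and 13 higher, against 11 lower with no trend, 6 lower and 7 higher in samples with Xist, and 11 to 19 lower with each library left out. The cause of these shifts was not tested, and the fits that left out libraries also had fewer samples. Deviations from the group means of same-numbered WT and Irf1-/- samples correlated at 0.0922, 0.269 and 0.321 for numbers 1, 2 and 3. Differently numbered samples correlated at -0.306 to 0.0838, so the same-numbered ones were higher. The reported fit did not pair them, and whether equal numbers share an origin was not tested. The replicate block changed the call of none of the tested receptors or Ccl20. Nor did it change that of the 24 called list genes with the largest changes, Ccl1 among them. Other named genes were not read from the block fit. Of these 24 genes, 9 kept the call throughout. Among the tested receptors depth limits Cxcr4, Cxcr5 and Cxcr6 most, and Ccr6 had 62, 58 and 102 reads in the Irf1-/- libraries.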

Other observations

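The genes whose pattern over the 6 samples was most like that of Ccr6, by Pearson's r on log2(normalized count + 1) among 8224 genes with a mean of at least 100, were Lrmp (r = 0.997), Ptprv (0.997) and Mllt1 (0.996), and 235 genes had an r of at least 0.95. For Ccr7 they were Ddx31 (0.987), Drg1 (0.985) and Dnttip2 (0.985), with 93 genes at 0.95 or above. All points share the genotype difference and the libraries, and no test was made of these values.

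Among the 5 markers of regulatory T cells, which carry Ccr4 and Ccr8, Foxp3 rose from 182 ± 8.99 to 337 ± 5.91 normalized counts (SD, n = 3 each), Ikzf2 fell from 1778 ± 237 to 958 ± 119 (log2 fold change -0.89, adjusted p = 0.000241 from limma), and Il2ra, Ctla4 and Tnfrsf18 were not called. The sum of 7 B cell markers was 20.0 to 27.7 in WT and 23.0 to 40.2 in Irf1-/- libraries, that of 5 dendritic cell markers 20.9 to 46.2 and 29.4 to 32.2, that of 4 NK cell markers 0 to 2.46 and 2.77 to 8.36, and that of the CD8 genes Cd8a and Cd8b1 32.4 to 41.2 and 20.3 to 30.7. The part of such cells in the receptor values was not tested.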
